A study of Mus musculus with 16 samples.

Results

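Distal regions that carried an ATAC-seq peak in every library of sorted mouse CD8+ T cells are described here. ATAC-seq cuts open chromatin with the Tn5 transposase, and the authors deposited a list of called peaks for each of 12 libraries. Peaks of all 12 libraries that overlapped by at least 1 bp were merged into 94635 regions, of which 20064 held a peak in all 12. Of these always-open regions, 3897 (19.4%) lay more than 10 kb from the body of every gene in the deposited RNA table, and they are called the distal always-open regions. The regions were selected on the presence of a called peak in each library and on the distance to a gene, so those properties are given as descriptions with no test.

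All cells came from Pmel-LC3-GFP-RFP mice. The Pmel receptor recognises a melanocyte antigen, and LC3, which the reporter labels, coats autophagosomes. Purified T cells received antibodies to CD3 and CD28 (2 µg/ml each) for 3 days in IL2 at 100 IU/ml, then carbon monoxide for 24 h, and were sorted as LC3-GFP positive or LC3-GFP negative. Tumour libraries were made from Vβ13+CD8+ cells sorted out of B16-F10 melanomas of individual C57BL/6 mice 15 days after transfer of LC3-GFP positive or LC3-GFP negative cells, the tumours having been implanted 12 days before transfer; there were 4 libraries of each kind. In vitro libraries were made from the sorted cells themselves, 2 positive and 2 negative, and RNA was sequenced from another 2 positive and 2 negative samples of such cells. Every group, controls included, had carbon monoxide. Nothing in the labels ties the in vitro and RNA replicates to separate animals or cultures, so their p-values reflect the spread between the samples at hand, which may be technical.

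Open chromatin marks DNA from which nucleosomes are displaced. Near gene starts it is shared by most cells, whereas distal open sites are typically enhancers, which bind transcription factors and differ between cell types, or insulator sites bound by CTCF. Promoters of genes that are silent or unnoticed, and genes transcribed by RNA polymerase III such as those for transfer RNA, can also lie far from any gene that a given RNA table lists.

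The libraries held 27406 to 63761 peaks, and read depth is unknown from the lists. What set the detection of peaks in each library was not tested. Tumour positive replicate 1 had the fewest (27406, against 36539 to 37477 in the other tumour positive libraries). Tumour negative replicate 2 had 55171, the most of the tumour libraries. Of 1378 distal regions with a peak in 11 libraries, 646 (46.9%) lacked it in tumour positive replicate 1 and 446 (32.4%) lacked it in tumour negative replicate 2. These 2 libraries therefore set much of the border of the selection, and without them 5117 distal regions had a peak in all the other 10. Of 10 CD8 T cell marker genes, 7 had a RefSeq promoter window; those of Cd3e, Cd3g, Cd8a, Cd5, Lck and Cd27 carried a peak in all 12 libraries and that of Cd3d in 11. None of the matched windows of B cell, myeloid or melanoma and stroma markers did so. Those of B cell markers carried a peak in 2 (Cd79a) to 4 libraries (Pax5 and Ebf1). Those of myeloid markers carried one in 1 (Lyz2) to 8 libraries (Itgam), and those of Dct, Tyrp1 and Tyr in 0.

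Sequences of gene starts inside distal always-open regions are shown first, because RefSeq places starts that the RNA table does not list in many of them. Each is a RefSeq promoter window of GRCm38.p6, the same assembly as mm10, 5′ to 3′ on the strand of the gene and running from 250 bases before the start to 50 after it. In the first pair and the last, capitals mark CpG dinucleotides. The highest-ranked region, chr10:81996902-81998015, holds the end of the window of the noncoding gene Gm10777 (chr10:81996902-81996972, plus strand). The highest-ranked region at the start of a coding gene absent from the RNA table, chr3:139204998-139206328, holds that of Stpg2 (chr3:139205643-139205942, plus strand), and the lowest-ranked with its whole window inside, chr14:58071107-58072993, holds that of Fgf9, a growth factor (chr14:58072436-58072735, plus strand). In Boll, which encodes a germ-cell RNA-binding protein (chr1:55363704-55364003, minus strand), and Vamp9 (chr5:99906015-99906314, plus strand), capitals mark a match to a short core of the CTCF motif, CCNNNAGNNGGC, on either strand. In 4930522L14Rik (chr5:109796520-109796819, minus strand), they mark a match to the AP-1 motif TGANTCA.
Gm10777: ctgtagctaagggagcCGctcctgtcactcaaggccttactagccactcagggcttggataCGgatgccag
Stpg2: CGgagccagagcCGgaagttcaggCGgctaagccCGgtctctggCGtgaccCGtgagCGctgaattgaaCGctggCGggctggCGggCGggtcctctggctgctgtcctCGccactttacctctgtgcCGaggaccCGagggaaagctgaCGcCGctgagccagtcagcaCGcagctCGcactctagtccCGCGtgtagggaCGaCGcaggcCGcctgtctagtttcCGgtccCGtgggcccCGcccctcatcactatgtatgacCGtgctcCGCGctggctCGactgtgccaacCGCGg
Boll: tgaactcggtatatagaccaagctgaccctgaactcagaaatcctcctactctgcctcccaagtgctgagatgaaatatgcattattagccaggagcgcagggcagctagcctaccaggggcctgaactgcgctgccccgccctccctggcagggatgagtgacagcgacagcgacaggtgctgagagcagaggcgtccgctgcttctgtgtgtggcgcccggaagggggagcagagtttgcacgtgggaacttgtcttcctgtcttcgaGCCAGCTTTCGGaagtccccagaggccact
Vamp9: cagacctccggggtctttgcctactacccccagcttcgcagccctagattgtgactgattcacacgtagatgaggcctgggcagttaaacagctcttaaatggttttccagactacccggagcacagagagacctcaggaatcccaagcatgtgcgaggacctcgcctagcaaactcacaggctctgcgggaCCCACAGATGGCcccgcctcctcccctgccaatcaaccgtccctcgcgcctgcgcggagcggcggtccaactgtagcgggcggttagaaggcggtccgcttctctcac
4930522L14Rik: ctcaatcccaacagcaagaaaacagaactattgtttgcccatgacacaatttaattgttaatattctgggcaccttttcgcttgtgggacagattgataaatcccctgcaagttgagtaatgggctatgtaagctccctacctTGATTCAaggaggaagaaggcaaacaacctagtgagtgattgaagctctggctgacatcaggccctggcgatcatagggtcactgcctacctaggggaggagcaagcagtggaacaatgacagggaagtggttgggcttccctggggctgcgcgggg
Fgf9: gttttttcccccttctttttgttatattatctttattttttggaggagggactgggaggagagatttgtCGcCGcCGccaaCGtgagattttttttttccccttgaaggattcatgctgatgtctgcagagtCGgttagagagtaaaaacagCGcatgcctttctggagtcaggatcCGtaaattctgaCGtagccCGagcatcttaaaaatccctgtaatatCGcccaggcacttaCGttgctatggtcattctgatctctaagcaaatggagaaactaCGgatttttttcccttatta
The windows differ in base composition. That of Stpg2 is 67.3% G or C with 32 CpGs, that of Vamp9 has 19 CpGs, and that of Fgf9 is 42.7% G or C with 12. The 4930522L14Rik window has 4 CpGs and that of Boll 13.

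The share of regions that were distal was lowest among those open in all libraries. It was 43.2% among regions with a peak in 1 library (11466 of 26551), 34.9% among those with a peak in 11, and 19.4% among those in all 12. The step from 11 to 12 libraries was larger than any between 1 and 11. The distal always-open regions had a median width of 1603 bp (quartiles 1325 and 2030), against 1805 bp for the 16167 always-open regions within 10 kb of a listed gene. Their median distance to a listed gene was 34354 bp. Regions on all chromosomes qualified, with 296 on chromosome 1 and 1 on chromosome Y; 3 lay on the mitochondrial genome, where the table lists no gene and the distance rule holds by default.

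**Figure D1:**
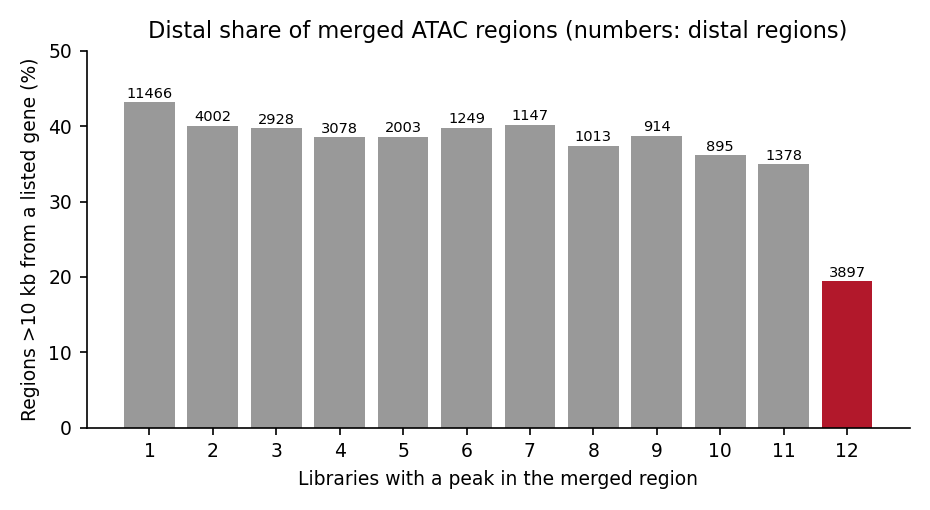
Bars give the percent of merged ATAC regions that lay more than 10 kb from every listed gene, by the number of libraries with a peak in the region, and the numbers above them count the distal regions. The share is 43.2% for 1 library, 34.9% for 11 and 19.4% for all 12 (red).

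At the threshold, the closest regions that qualified lay 10018 bp from Tbcc (chr17:46879536-46880603), 10029 bp from Arhgap25 (chr6:87446771-87448516) and 10033 bp from Bst1 (chr5:43807313-43808860). The closest that did not lay 9993 bp from Hk2 (chr6:82713807-82715034), 9980 bp from Irf8 (chr8:120724444-120726378) and 9966 bp from Capn2 (chr1:182527450-182529250). Farthest from a listed gene was chr1:101901700-101903195, 3373722 bp from Rnf152, and the next 2 were chr2:98666586-98667333 (B230118H07Rik) and chr6:61179922-61181349 (Gprin3). The last of these overlaps the RefSeq start of a coding gene that the RNA table does not list.

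Many of the regions are distal only with respect to the 13275 genes that the RNA table lists. Set against all 49997 RefSeq genes placed on GRCm38.p6, 1830 of the 3897 (47.0%) overlapped the body of a gene, 869 (22.3%) lay within 10 kb of one, and 1198 (30.7%) lay farther from every gene. The 1198 include the 3 mitochondrial regions, which were matched to no RefSeq gene and count by default. In distal regions with a peak in 2 to 11 libraries, the share farther from every RefSeq gene was 33.6%, and in those with a peak in 1 library it was 35.0%. A RefSeq start window was overlapped by 520 distal always-open regions (13.3%), against 5.85% of distal regions open in 2 to 11 libraries and 3.69% of those open in 1. Among the 520, 237 held the start of a protein-coding gene that is not in the RNA table, 280 that of an unlisted noncoding gene, and 31 a more distant start of a listed gene; a region can hold several.

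**Figure D2:**
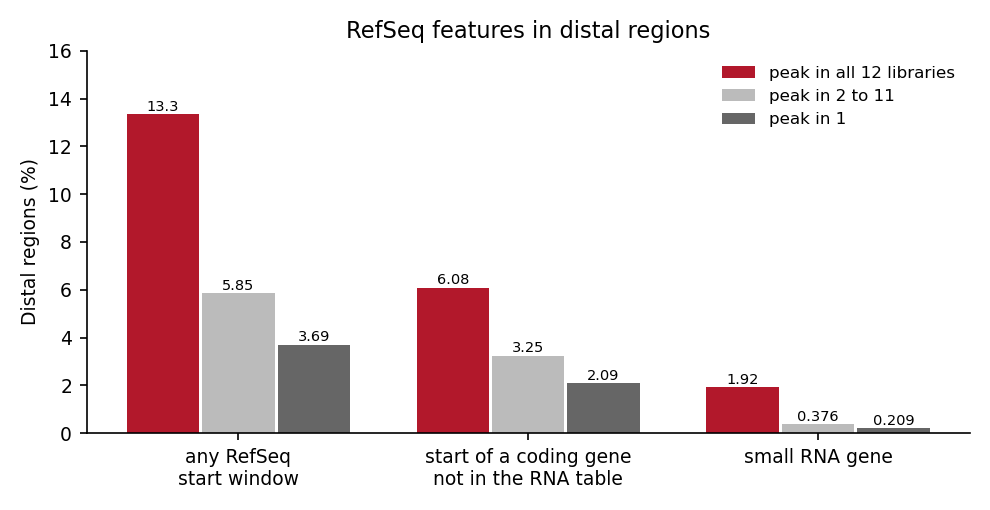
Bars give the percent of distal regions that overlap each RefSeq feature, for regions with a peak in all 12 libraries (red), in 2 to 11 (light grey) and in 1 (dark grey). A RefSeq start lies in 13.3%, 5.85% and 3.69% of them, and a small RNA gene in 1.92%, 0.376% and 0.209%.

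Most unlisted coding starts had no peak. Of 8309 promoter windows of coding genes outside the RNA table, 263 (3.17%) lay in a distal always-open region and 6685 (80.5%) in no peak of any library. Another 248 (2.98%) lay in other always-open regions and 1113 (13.4%) in regions with a peak in 1 to 11 libraries. The 263 windows had a median CpG content of 0.692 of that expected from their C and G (observed over expected), against 0.191 in the 6685 without a peak, 0.793 in the 11957 windows of other always-open regions and 0.383 over all 32817 windows. A ratio above 0.6 occurred in 64.3% of the 263 and in 9.32% of the 6685. The unlisted noncoding starts in distal always-open regions were poorer in CpG, with a median of 0.378.

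Motifs were searched on both strands of the promoter windows, as letters only. The CTCF core occurred in 71 of 638 windows in distal always-open regions (11.1%), in 13.4% of windows in other always-open regions, in 12.1% of windows in distal regions open in 2 to 11 libraries and in 8.61% of all windows. AP-1 letters, which Fos and Jun proteins bind, occurred in 9.87%, against 4.30% in other always-open regions, 10.4% in distal regions open in 2 to 11 libraries, 13.4% in those open in 1, 9.71% of windows with no peak and 7.81% of all windows. The ETS motif CCGGAAG occurred in 6.11%, against 19.6% in other always-open regions, 4.24% in distal regions open in 2 to 11 libraries and 8.86% of all windows, and the NRF1 motif GCGCANGCGC in 2.98%, against 11.1%, 1.57% and 4.59% in the same sets. The runs of G and C that Sp factors bind, GGGGCGGGG, occurred in 17.7%, against 23.2%, 10.8% and 11.4%. CpG content differed between these sets as given above, and its part in the motif shares was not tested; windows centred on peak summits were not analysed here. The Stpg2 and Boll windows printed above also hold the ETS letters, and the Vamp9 window the AP-1 letters, which are not marked there.

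Small RNA genes were a second feature of the distal always-open regions. They lay in 75 of the regions (1.92%), against 0.376% of distal regions open in 2 to 11 libraries and 0.209% of those open in 1. Transfer RNA genes, which RNA polymerase III transcribes, made up most of them: 75 such genes lay in 41 regions, and 17 of the regions held 2 or more. Of 408 transfer RNA genes in RefSeq, 196 (48.0%) lay in an always-open region of either kind. On chromosome 13, 12 regions held 21 of them, including chr13:23516915-23519858, which holds 5 and lies 11186 bp from the histone gene Hist1h4h. Another 5 lay in chr19:12009671-12013566, near Osbp. Their heights spread over nearly the whole range, from the 0.812 to the 95.7 percentile of always-open regions, with a median of 54.8. Small nuclear RNA genes, components of the spliceosome, lay in 18 regions, among them Rnu5g and, at the 99.0 percentile, Gm22634 near Eapp. Such genes occur in near-identical copies, and how the authors placed reads that map to several copies is not given in the sources used here.

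MicroRNA genes were fewer. Hairpins of 14 microRNA genes lay in 10 of the regions, and those of the better known microRNAs are given as their RefSeq mature sequences, with the seed (bases 2 to 8), which pairs with target transcripts, in capitals. Mir9-1 (chr3:88215598-88215686) and Mir9-2 (chr13:83738814-83738885) give the same mature miR-9 from separate regions; the others are Mir193a (chr11:79711969-79712034) and Mir203 (chr12:112130880-112130955).
miR-9-5p: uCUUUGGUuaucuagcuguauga
miR-9-3p: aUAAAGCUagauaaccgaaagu
miR-193a-3p: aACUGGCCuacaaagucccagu
miR-203-3p: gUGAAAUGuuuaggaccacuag
The seeds of these 4 differ from one another. The Mir9-1 region (chr3:88214404-88216185) had a median percentile of 42.7 and the Mir9-2 region (chr13:83737637-83740070), whose nearest listed gene is Mef2c, one of 19.7. The Mir193a region stood at 67.2 and the Mir203 region at 63.7. The Mir203 region was at 65.8 in tumour libraries and 30.4 in vitro, and the Mir193a region at 62.7 in tumour libraries and 82.5 in vitro. Whether the microRNAs were expressed was not measured in these files.

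Peak height was compared by rank. In each library, the fold enrichment of the strongest peak in a region, as the authors' caller gave it, was converted to a percentile among the 20064 always-open regions. On this scale, heights of the distal regions were close to those of always-open regions near genes, with a median over libraries of 51.9 against 50.2. Their median per library was 45.2, 53.4, 53.9 and 54.0 in tumour positive, 47.7, 48.9, 51.5 and 49.2 in tumour negative, 55.6 and 52.8 in in vitro positive, and 53.3 and 50.6 in in vitro negative libraries. The lowest of the 12 was tumour positive replicate 1, the library with the fewest peaks. The pileup signal at the summit was lower for distal regions than for regions near genes in every library. Its medians were 24 against 44 in tumour positive replicate 1 and 59 against 88 in in vitro positive replicate 1. Distal peaks were also shorter in every library, with medians of 879 against 1121 bp and 1230 against 1502 bp in the same 2 libraries. A single region moved more between libraries when it was distal: the range of its percentile over the 12 libraries had a median of 44.9, against 33.2 for always-open regions near genes. Coding starts absent from the RNA table had a median percentile of 53.0 in tumour libraries and 68.7 in vitro, and regions more than 10 kb from every RefSeq gene 51.2 and 51.0. The tumour and in vitro lists are separate tables, so no test was run between them.

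**Figure D3:**
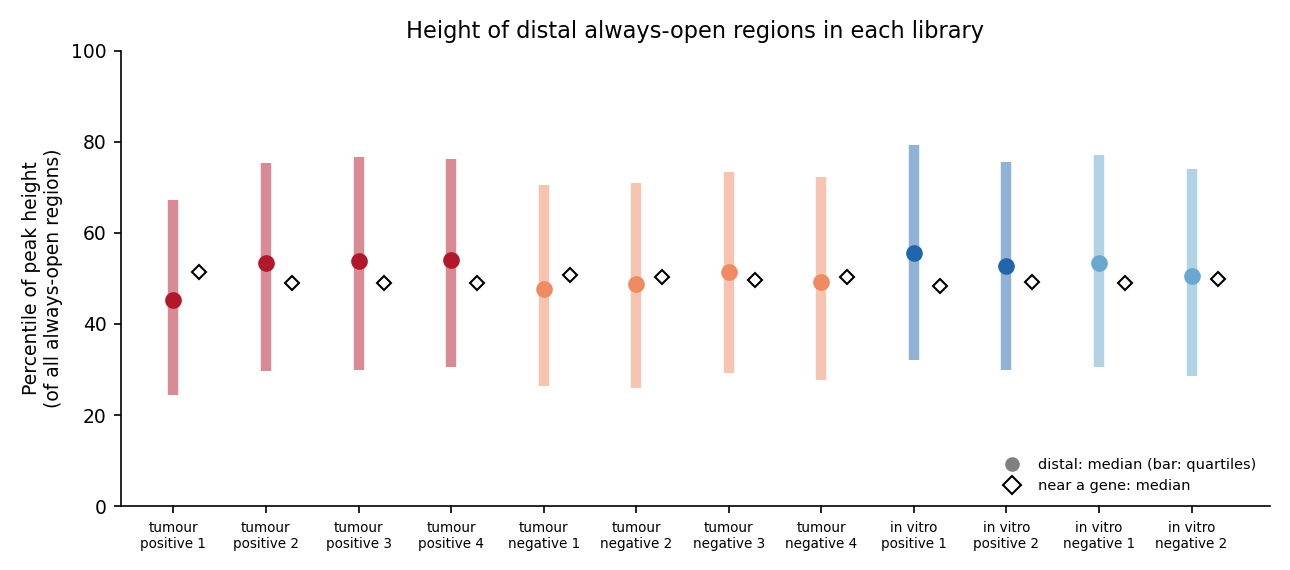
The vertical axis gives the percentile of peak height among the 20064 always-open regions, and each library has a filled circle for the median of the 3897 distal regions, a bar for their quartiles and an open diamond for the median of the 16167 regions near genes. Distal medians lie between 45.2 (tumour positive replicate 1) and 55.6 (in vitro positive replicate 1).

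The highest region by median rank, chr10:81996902-81998015 with the Gm10777 start, had a fold enrichment of 12.7, 14.6, 15.1 and 13.7 in tumour positive, 19.1, 13, 13.8 and 13.6 in tumour negative, 15.1 and 15.1 in in vitro positive and 15.95 and 15.8 in in vitro negative libraries. It was near the top of every list. The second, chr10:116613093-116614019, lies 31581 bp from Cnot2, a subunit of the CCR4-NOT complex that shortens poly(A) tails. Its fold enrichment was 13.3, 13.9, 13.7 and 13.4 in tumour positive and 15.95, 7.12, 11.6 and 14.5 in tumour negative libraries, and 4.39 and 7.93 in in vitro positive and 11.6 and 10.9 in in vitro negative libraries. In vitro the 2 positive libraries lay below both negative ones (adjusted p = 0.146, limma). The third, chr12:120027911-120028949, is also among the 5 farthest from a listed gene, 1726470 bp from Sp4. The remaining 5 of the top 8 include the Stpg2 and Boll starts and a region 31912 bp from Xcl1, a chemokine of activated CD8+ T cells, at chr1:164898443-164899736 (percentile 99.4). The lowest were a mitochondrial stretch and regions near Btg2 (chr1:134062990-134064000), Ccr1 (chr9:123927566-123929177) and Ly6e (chr15:74930450-74932944), with medians of 0.0424 to 0.404.

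How many of these regions differed between LC3-GFP positive and negative cells depended on the scale of the heights. In the tumour libraries, positive and negative name the T cells that were transferred. There, limma on rank-based normal scores of fold enrichment called 2 distal regions at an adjusted p under 0.05, against 4 of all 20064 always-open regions (0.0199%). With log2 fold enrichment centred on the library median it called 20 distal regions, beside 0.339% of all, and with ranks of the pileup signal 178 (4.57%), beside 2.22% of all. At an unadjusted p under 0.05, 593 of the 3897 (15.2%) passed, 360 higher and 233 lower in positive cells, beside 12.5% of all always-open regions. The median difference was 0.04 normal-score units over the distal regions and -0.02 over all regions. With pileup 1011 passed (25.9%, beside 17.3% of all), 498 higher and 513 lower, and with the distal regions ranked among themselves 502 passed, 256 higher and 246 lower, so the excess of higher regions was not seen with pileup and was small within the distal ranks.

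In vitro no region was called on rank scores of fold enrichment or of pileup, distal or not (0%), with a smallest adjusted p of 0.134 among the distal ones on fold enrichment. With centred log2 fold enrichment 73 distal regions were called (1.87%), beside 1.07% of all. At an unadjusted p under 0.05, 706 (18.1%) passed in vitro, 405 higher and 301 lower, beside 13.4% of all regions; the median difference was 0.07, against 0.00 over all. The direction turned with pileup, where 1023 passed (26.3%, beside 19% of all), 442 higher and 581 lower, and with the distal regions ranked among themselves, where 542 passed, 250 higher and 292 lower.

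The called region that was lower in tumour positive libraries, chr6:22378193-22379662, lies 22111 bp from Fam3c, which encodes a secreted protein. Its percentile was 15.1, 16.1, 19.99 and 20.7 in tumour positive libraries and 71.8, 84.7, 90.4 and 71.4 in tumour negative libraries. It was 97.6 and 92.8 in in vitro positive and 94.9 and 96.0 in in vitro negative libraries. The tumour groups did not overlap, and the in vitro groups did (tumour difference -1.79 ± 0.21 normal-score units, SE, adjusted p = 0.0208, limma; in vitro difference 0.03, adjusted p = 0.973). The call was lost without tumour negative replicate 3, where the adjusted p was 0.0892, and without any 1 of the positive libraries, where it was 0.0896 to 0.114. Fam3c RNA in the sorted cells was 70.5 ± 4.5 CPM in positive and 58.8 ± 3.5 CPM in negative samples (SD, n = 2 each; adjusted p = 0.00943, edgeR). CPM are counts scaled by library size.

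The called region that was higher in tumour positive libraries, chr1:180295817-180296985, lies 29984 bp from Gm5069. Its percentile was 67.7, 69.0, 70.5 and 62.7 in tumour positive libraries and 28.1, 8.51, 13.5 and 7.70 in tumour negative libraries. In vitro it was 5.95 and 6.58 in positive and 25.4 and 19.5 in negative libraries. Groups did not overlap in either setting, and the direction was opposite in vitro. The tumour difference was 1.58 ± 0.22 (SE, adjusted p = 0.0474, limma) and the in vitro one -0.77 (adjusted p = 0.207); their difference was not tested. Leaving out any 1 library other than tumour negative replicate 1 ended this call, at adjusted p values of 0.0659 to 0.199, as did leaving out both tumour positive replicate 1 and tumour negative replicate 2 (0.0565). With pileup ranks the tumour difference was 0.69 (adjusted p = 0.179).

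Without tumour positive replicate 1 and tumour negative replicate 2, the 2 libraries that most often lacked a peak, 14 distal regions were called, 13 of them higher in positive cells, and 29 of all always-open regions, 21 of them higher. With all libraries, the positive and negative tumour groups did not overlap at 191 distal regions that were higher in positive cells (4.90%, beside 3.88% of all always-open regions) and 158 that were lower (4.05%, beside 4.38%). Without these 2 libraries the counts were 546 higher (14.0%, beside 9.94%) and 364 lower (9.34%, beside 12.3%). In vitro, 1044 were higher without overlap (26.8%, beside 22.7%) and 756 lower (19.4%, beside 22.4%). These counts use ranks of fold enrichment. As given above, the excess of higher regions at an unadjusted p under 0.05 was small or reversed with pileup and within the distal ranks. With centred log2 fold enrichment it was seen in both settings, at 342 higher and 259 lower in the tumour and 465 and 314 in vitro.

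Tumour and in vitro values are set side by side with no test, as the lists are separate tables. All 8 tumour libraries lay above all 4 in vitro libraries at 136 distal regions (3.49%, beside 4.35% of all always-open regions) and below them at 190 (4.88%, beside 3.33%). Without the 2 libraries named above these counts were 292 (7.49%, beside 7.68%) and 365 (9.37%, beside 7.43%). The regions described next have some of the widest gaps and were chosen after their values were seen.

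Inside the gene body that RefSeq gives for Ets1, a transcription factor of lymphocytes, but 22969 bp from the body that the RNA table lists, chr9:32671298-32673073 had a percentile of 57.5, 75.9, 77.9 and 81.7 in tumour positive and 60.7, 23.1, 46.9 and 78.6 in tumour negative libraries. In vitro it was 9.24 and 9.82 in positive and 15.9 and 17.3 in negative libraries. The other regions nearest to Ets1 had lower medians in tumour than in in vitro libraries. These were 33.3 against 59.3 at chr9:32660233-32662484 and 67.9 against 78.5 at chr9:32651597-32652876. The start of Mill2, an MHC class I-like gene that the RNA table does not list, lies in chr7:18839844-18841291 and stood at 67.1, 92.2, 84.8 and 95.3 in tumour positive and 82.7, 86.3, 81.0 and 77.9 in tumour negative libraries, and at 22.4 and 20.5 in in vitro positive and 33.6 and 20.3 in in vitro negative libraries. At chr9:32671298-32673073 and at the Mill2 start, all 8 tumour libraries lay above all 4 in vitro libraries.

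The reverse was seen at chr12:25366902-25368189, 270809 bp from Id2, an inhibitor of helix-loop-helix transcription factors in effector T cells. It stood at 3.76, 10.2, 4.93 and 11.9 in tumour positive, 2.15, 9.03, 2.77 and 3.47 in tumour negative, 79.3 and 72.1 in in vitro positive and 99.4 and 78.1 in in vitro negative libraries. Near Ripk2, a kinase of the NOD receptor pathway, chr4:16101393-16103482 stood at 14.2, 44.7, 45.1 and 18.7 in tumour positive and 11.9, 53.4, 20.7 and 23.4 in tumour negative libraries, and at 76.4 and 68.5 in in vitro positive and 97.3 and 94.6 in in vitro negative libraries. The in vitro groups of the Ripk2 region did not overlap, positive being lower, without passing the test (adjusted p = 0.149, limma).

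**Figure D4:**
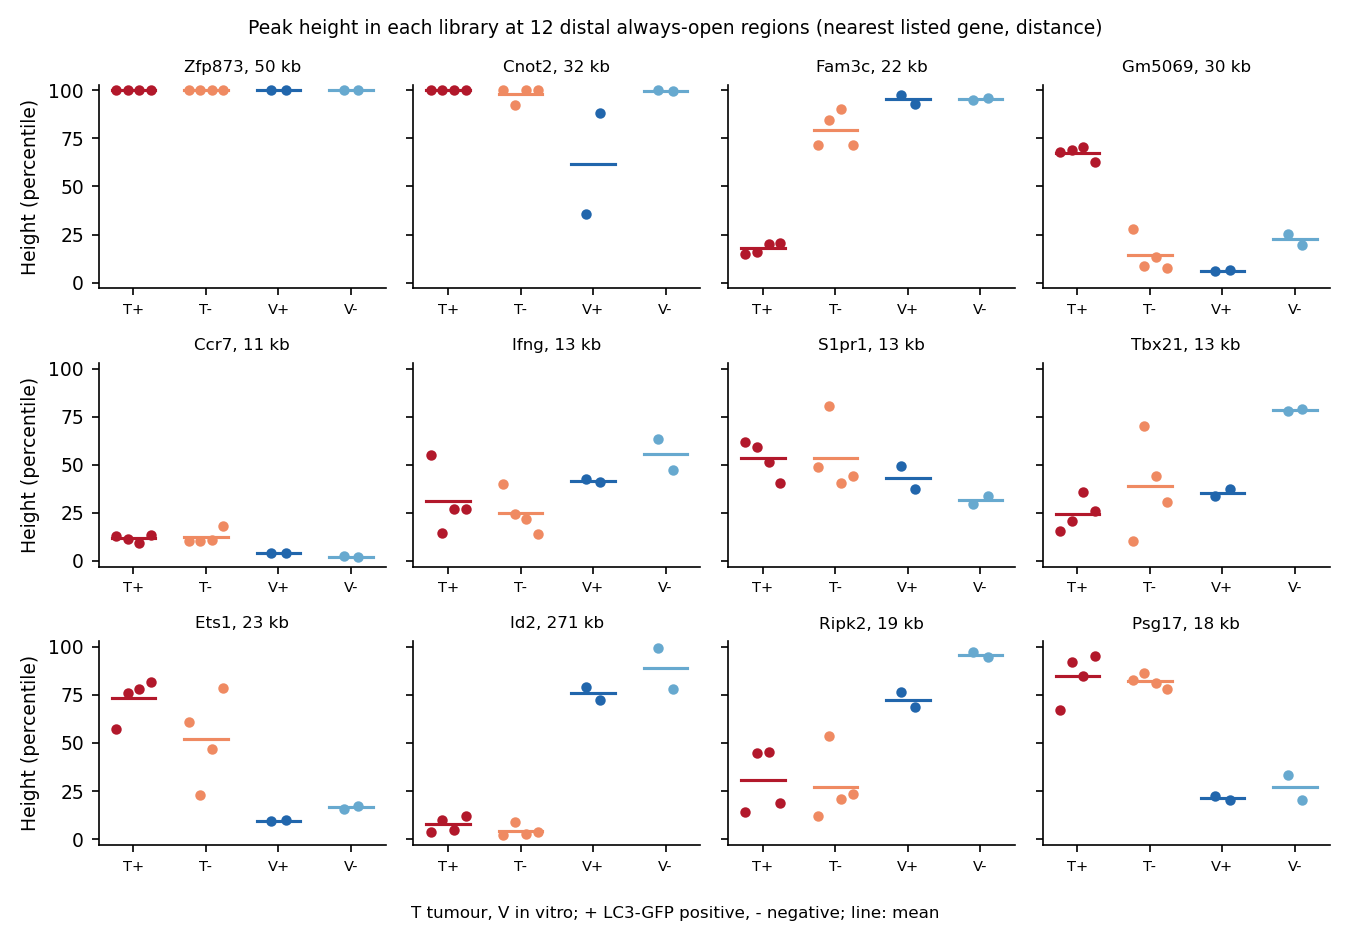
Each panel gives the height percentile of 1 distal always-open region in every library, under the nearest listed gene and the distance, for tumour positive (T+), tumour negative (T-), in vitro positive (V+) and in vitro negative (V-) libraries, with the mean as a line. At the region near Fam3c the tumour positive libraries lie at 15.1 to 20.7 and the tumour negative ones at 71.4 to 90.4, and at the region near Id2 all tumour libraries lie at or below 11.9.

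Distal always-open regions clustered at some genes. They fell into 2786 stretches when regions at most 25 kb apart were joined, 2121 of them holding a single region, and 45 stretches held 5 or more (272 regions). The longest by number, chr10:117897458-118007948, held 10 regions over 110 kb between Rap1b and Mdm1. By nearest listed gene, 2352 genes were named, 1538 of them by 1 region. The most regions were nearest to Btg1, an antiproliferative factor (16), Id2 (15), Foxo1 and Klf13 (13 each), Eea1, a tether of early endosomes (11), and Bach2, Chd7 and Rap1b (10 each). Nearest by distance does not show that a region acts on that gene.

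Regulators of T cells were looked up in a list of 85 genes chosen with earlier results of these data known, and 53 of them were the nearest listed gene of 169 distal always-open regions. The regions of this list were of below-median height, with a median percentile of 36.4 against 51.9 over all 3897. Foxo1, a factor of T cell quiescence and homing, had 13 regions at 8.44 to 79.6. Bach2, a repressor that restrains effector differentiation, had 10 that all lay in the lower ranks, at 2.71 to 38.9. All 10 lie inside the gene body that RefSeq gives for Bach2, but outside the body that the RNA table lists. S1pr1, the receptor that guides exit from lymphoid organs, had 9 at 5.75 to 82.8, and Cxcr4 and Bcl11b, a chemokine receptor and a T lineage factor, had 8 each. Runx3, a CD8 lineage factor, had 6 with a median of 12.7. Single regions high in the ranks lay near Nr4a3, a factor induced by receptor signalling (98.1), Gzma, a cytotoxic protease (97.6), and Lef1, a partner of beta-catenin (97.3). The region near Gzma lies inside the RefSeq body of another gene, Cdc20b.

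**Figure D5:**
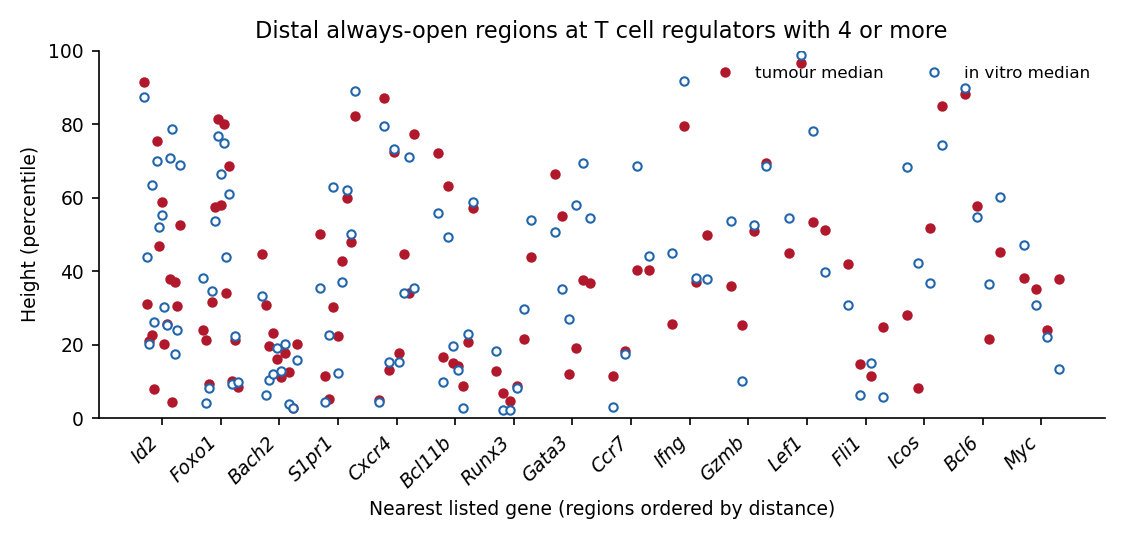
The horizontal axis gives T cell regulators that are the nearest listed gene of 4 or more distal always-open regions, and the vertical axis each region's median height percentile in tumour libraries (filled) and in vitro libraries (open), with regions ordered by distance from the gene. The 10 regions at Bach2, all inside the gene body that RefSeq gives for it, have medians over the 12 libraries of 2.71 to 38.9. The 15 at Id2 reach 89.5.

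No regulator region was called between LC3-GFP groups. At Ccr7, a receptor for homing to lymph nodes, chr11:99130504-99133581 stood at 12.8, 11.6, 9.08 and 13.5 in tumour positive, 10.1, 10.3, 11.1 and 18.1 in tumour negative, 3.87 and 4.11 in in vitro positive and 2.33 and 2.23 in in vitro negative libraries. At Ifng, the cytokine interferon gamma, chr10:118458567-118462007 stood at 55.3, 14.4, 27.0 and 27.2 in tumour positive, 40.0, 24.4, 22.0 and 13.7 in tumour negative, 42.4 and 40.8 in in vitro positive and 63.3 and 47.5 in in vitro negative libraries. The Ccr7 region was low everywhere, and both regions overlapped between the tumour groups. At S1pr1, chr3:115728006-115731266 stood at 61.8, 59.1, 51.5 and 40.7 in tumour positive, 48.8, 80.7, 40.4 and 44.2 in tumour negative, 49.3 and 37.1 in in vitro positive and 29.4 and 33.9 in in vitro negative libraries. At Tbx21, which encodes the effector factor T-bet, chr11:97082754-97084527 stood at 15.7, 20.7, 36.0 and 25.9 in tumour positive, 10.5, 69.9, 43.9 and 30.6 in tumour negative, 33.9 and 37.1 in in vitro positive and 77.7 and 78.8 in in vitro negative libraries. The Tbx21 region showed the wider in vitro gap, without passing the test (adjusted p = 0.135, limma). Among the other 11 regions closest to a regulator, the tumour groups separated fully at 3, without passing the test. Over all always-open regions they separated at 3.88% with positive higher and at 4.38% with positive lower. Near Cxcr5, a homing receptor for B cell follicles, chr9:44537230-44538578 stood at 9.92, 13.3, 14.6 and 10.3 in tumour positive and 34.0, 63.8, 30.9 and 36.5 in tumour negative libraries (difference -0.95 ± 0.22 normal-score units, SE, adjusted p = 0.132, limma). Near Cd8b1, which encodes the beta chain of CD8, chr6:71351207-71354012 stood at 0.167, 1.67, 1.08 and 1.28 in tumour positive and 6.89, 11.2, 4.55 and 3.96 in tumour negative libraries (adjusted p = 0.167, limma). Near Runx3, chr4:135108432-135109436 stood at 11.6, 7.07, 6.94 and 6.93 in tumour positive and 21.0, 40.5, 16.7 and 13.9 in tumour negative libraries (adjusted p = 0.259, limma). In vitro positive and negative libraries stood at 28.6 and 42.6 against 23.8 and 35.3 near Cxcr5, 7.65 and 7.15 against 6.67 and 3.81 near Cd8b1, and 17.3 and 36.7 against 18.4 and 18.002 near Runx3. All 3 regions were lower in every tumour positive library than in any tumour negative one, and the in vitro groups overlapped near Cxcr5 and Runx3.

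RNA of the nearest genes was measured in the sorted cells. Totals were 17557628 and 15605902 counts in positive and 15850657 and 14567540 in negative libraries. Of 2174 nearest genes tested, edgeR's quasi-likelihood test called 682 (31.4%) at an adjusted p under 0.05, beside 25% of all 12022 genes tested. In positive cells 270 were higher (12.4%, beside 11.3% of all genes) and 412 lower (19.0%, beside 13.6%). Without RNA positive replicate 1, 443 of 2208 nearest genes were called (20.1%), beside 14.0% of all 12285 genes then tested. Their median log2 fold change was -0.01, against 0.00 over all genes. They were expressed at a higher level, with a median of 41.7 CPM against 32.0 CPM over all genes tested, and the part of level in the number of calls was not tested. Among the 82 tested genes with 5 or more regions, 33 were called (40.2%), 10 higher and 23 lower, with a median level of 78.1 CPM.

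Among the 53 regulators with a distal always-open region, 22 were called (41.5%, beside 25% of all 12022 genes tested). Of the 22, 8 were higher and 14 lower in LC3-GFP positive cells. Among the 31 tested regulators without a region, 19 were called (61.3%), with 2 higher and 17 lower. Over all genes tested, 11.3% were higher and 13.6% lower. The list was chosen with earlier results of these data known, and whether having a region mattered was not tested. Eomes, a factor of effector and memory cells, fell to 34.4 ± 0.2 CPM in positive cells, against 93.9 ± 6.5 CPM in negative cells (SD, n = 2 each; log2 fold change -1.45 ± 0.07, SE, adjusted p = 9.2e-11, edgeR). Bcl2l11, which encodes the death factor Bim, fell by 0.95 on the log2 scale, and Ccl5, a chemokine, fell by 0.92. Id2 fell by 0.56 (174.8 ± 2.1 against 256.9 ± 13.5 CPM) and Runx3 by 0.30. Higher in positive cells were Cxcr3, an effector homing receptor (log2 fold change 0.70), Id3 (0.64), Tcf7, which encodes the memory factor TCF1 (0.49), Ccr7 (0.36) and Il2ra, the alpha chain of the IL2 receptor (0.29). Bach2, S1pr1, Cxcr4 and Bcl11b, each with 8 or more regions, did not pass the test, with log2 fold changes of -0.18, -0.02, -0.08 and -0.03. Btg1 fell by 0.27 and Klf13 by 0.27 as well.

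Genes with the largest called changes among the nearest genes were mostly low in counts. Itga7, an integrin chain, had 15.0 and 14.1 CPM in positive and 53.1 and 55.3 CPM in negative libraries (log2 fold change -1.89, adjusted p = 5.2e-11, edgeR), with a region 31374 bp away. Pde2a, a cyclic nucleotide phosphodiesterase, had 7.19 and 6.47 CPM in positive and 27.1 and 34.6 CPM in negative libraries, and Serpinb1a, a protease inhibitor, 3.51 and 3.20 CPM against 15.1 and 14.5 CPM. Hist2h2bb, a histone gene, had 2 and 1 counts in positive and 11 and 18 in negative libraries, a ratio of 0.0949 with an exact 95% interval of 0.0185 to 0.306 for counting error. Also lower in positive cells were Cd7, Wdr95, Hist1h4h, Kis2, Gm12596 and Ceacam16, with log2 fold changes of -2.59 to -1.88.

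Among genes higher in positive cells, Ms4a1, which encodes the B cell surface protein CD20, had 25 and 12 counts in positive and 0 and 1 in negative libraries, a ratio of 33.9 with an exact 95% interval of 5.72 to 1376 that covers counting error only. Mef2c, a transcription factor that B cells also use, had 39 and 25 counts in positive and 2 and 2 in negative libraries, and Mreg, Grk3, Sox5, Erg, Sema3c, 5830411N06Rik, Arhgap32 and Chst3 had 25 to 58 counts in both positive libraries together against 3 to 9 in the negative ones. The summed level of the 6 B cell markers in the RNA table moved with these genes, at 13.6 and 12.9 CPM in positive and 4.73 and 5.49 CPM in negative libraries, with none at 0 in both groups; its part in these differences was not tested. The 10 CD8 T cell markers summed to 3941 and 3938 CPM in positive and 4214 and 4184 CPM in negative libraries. In bulk samples, fewer cells of a type and less RNA per cell cannot be told apart. The region nearest to Ms4a1, 26500 bp away, was at the 97.0 percentile and that nearest to Mef2c, the Mir9-2 region, at 19.7.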

How the data were processed

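ATAC-seq libraries (12) and RNA-seq libraries (4) were grouped by the cell population in the labels. The deposited peak lists give, per the file headers, each peak's position, length, pileup signal at the summit, fold enrichment, and −log10 p-value and −log10 q-value; the authors used Partek, cutadapt, BWA and MACS2 on mm10, per the submitters' processing notes. The smallest −log10 q-value was 1.30. Each library was called on its own. Any shift of reads for the Tn5 cut is not given in the sources used here. These caller values are the authors' and were used to rank regions within a library. The deposited RNA table holds estimated counts per gene, from Partek, STAR and DESeq2 on mm10 per the same notes, which were rounded here. Strand handling is not given in the sources used here, so overlapping and antisense genes are uncertain.

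Peaks overlapping by 1 bp were merged, and distances taken to the gene coordinates of the RNA table. All deposited peaks were used, with no filter for artefact-prone regions. Heights were tested with limma 3.58.1, positive minus negative, on rank-based normal scores over 20064 regions, within tumour and within in vitro libraries. RNA was tested with edgeR 4.0.16 (filterByExpr, TMM, quasi-likelihood test); DESeq2 1.42.0 was an alternative. P-values were adjusted by Benjamini-Hochberg over everything tested, at a threshold of 0.05. Scripts were tested on simulated data. RefSeq names matched 12941 of 13275 listed genes. Sequence at peak summits was planned for the motif search; RefSeq promoter windows were used in its place. Named regions are the 8 highest and 4 lowest by median rank, those beside the 10 kb threshold, the 5 farthest, the called ones and those closest to a T cell regulator; named genes are the 10 nearest genes with the largest called change each way. The regions and lists were chosen with earlier results of these data known.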

Additional observations from a re-analysis of the deposited data

Results flagged for a closer look

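In groups of 4 libraries, a value was singled out when its gap to the nearest other exceeded Dixon's 95% critical value of the group's range; 8 of 34 groups looked at were, and chance gives about 1 in 20. Tumour positive replicate 1 was singled out 3 times: for 27406 peaks, for the 14.6% of its peaks that lay in distal always-open regions, and for the median percentile of 45.2 of those regions. At the top-ranked region near Zfp873, the lowest tumour positive value (99.95 percentile) and the highest tumour negative value (99.98) were singled out, both within groups that differed by fractions of a percentile. At the region near Cnot2, 1 tumour positive value (99.97) was singled out in the same way, and tumour negative replicate 2 stood at 92.3 below the others. At the region near Ccr7, tumour negative replicate 4 stood at 18.1, above the others.

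At the region near Gm5069, LC3-GFP positive libraries lay above negative ones in the tumour (difference 1.58 normal-score units) and below them in vitro (-0.77), in every library; the difference between the settings was not tested.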

How the results depend on the processing

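The number of distal always-open regions was 3897. It was 1405 beyond 50 kb of a listed gene and 1199 with every RefSeq gene in place of the listed ones, both counting the 3 mitochondrial regions. It ranged from 3907 to 4543 with 1 library left out, highest without tumour positive replicate 1. It stayed within 1.5 times under the other alternatives run. Distal regions called in the tumour numbered 2; they were 178 with pileup in place of fold enrichment (446 of all regions), 8 when ranked among themselves, 20 with log2 fold enrichment minus the library median (68 of all regions), 14 without both libraries that stood apart (29 of all) and 0 to 3 with 1 library left out. In vitro 0 were called, 0 with 1 library left out, and 73 with the log2 values (214 of all). The causes were not tested. With the replicate block, 0 distal regions were called in the tumour, 85 in vitro (206 of all) and 792 nearest genes in RNA, against 2, 0 and 682; the calls near Fam3c and Gm5069 both had an adjusted p of 0.122 with it. Same-numbered libraries correlated at -0.027 to 0.078 in the tumour, 0.054 in vitro and 0.065 in RNA after removal of group means. In vitro and in RNA these values do not decide whether the numbers pair the samples, since with 2 samples a group the deviations mirror each other. In the tumour, differently numbered libraries correlated at -0.13 to 0.071, so the same-numbered ones did not stand apart. RNA calls ranged from 443 to 752 with 1 library left out and were 469 with DESeq2 (21.6%, beside 14.4% of all genes). The CTCF core share of 11.1% was 6.11% in the last 150 bases of the windows, which hold fewer positions; the search over whole regions was not run. Of 333 alternative values for the 42 named genes, 302 kept their call and 31 lost it, with no change of direction. Mreg, Sox5, Sema3c, 5830411N06Rik, Chst3, Kis2 and Klf2 lost theirs with DESeq2. Leaving out both doubted libraries was chosen after the data were seen.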
